A study of Homo sapiens with 4 samples.

Results

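BrdU peaks that lie over a tandem repeat of a 5 or 6 bp unit were described here. A peak was a member when it overlapped, by at least 1 bp, a perfect tandem repeat of 20 bp or more whose unit of 5 or 6 bp was not itself a repeat of a shorter one, and when it overlapped no such tract of a 2 or 4 bp unit. Of the 32710 peaks on chromosomes 1 to 22, 595 were members, or 1.82%, and the whole list held 33295 peaks. A further 32 peaks held a 5 or 6 bp tract but also a 2 or 4 bp tract and were left out. The members came together in 358 sites when peaks that overlapped or touched were merged.

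The peaks were called by the authors in BrdU-Seq of BJ-hTERT cells, human foreskin fibroblasts immortalised with telomerase, which were arrested by serum starvation and released. BrdU, a thymidine analogue that is built into new DNA, was given before collection at 16, 19, 22, 24 and 28 h, and each timepoint was called against Input DNA in 2 repeats of the experiment. The list gives a chromosome, a start and an end, without timepoint, repeat, score or read count, so the depth behind a peak is unknown and no spread between repeats could be given. The ChIP-Seq samples of RNAPII and PCNA at 14 and 16 h, from the same untreated line with 1 sample each, were not analysed here.

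Tandem repeats of short units grow and shrink when a copying polymerase slips, and some fold into structures that slow a replication fork. The pentamer AATGG, also read as GGAAT or CATTC, is the unit of human satellites II and III, which fill heterochromatin beside centromeres and on the short arms of acrocentric chromosomes, where their copies have drifted apart in sequence. The hexamer TTAGGG is the unit of telomeres. Units that differ by rotation or by strand are 1 unit here, named by the rotation that comes first in the alphabet, so the telomere unit is AACCCT.

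The sequences below are shown because they give the form in which the satellite unit AATGG, the related unit ACTCC, the unit AGGAT of the sites with most stacked peaks, and the telomere unit stood at a peak. For each unit a member peak with its longest tract was taken, and 160 bases around the tract are given from the hg38 reference, plus strand, with the tract in capitals.
AATGG at chr21:7261181-7261340: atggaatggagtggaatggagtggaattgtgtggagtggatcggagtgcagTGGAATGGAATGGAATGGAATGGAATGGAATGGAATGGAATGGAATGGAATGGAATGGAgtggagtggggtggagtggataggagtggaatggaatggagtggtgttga
ACTCC at chr7:57491662-57491821: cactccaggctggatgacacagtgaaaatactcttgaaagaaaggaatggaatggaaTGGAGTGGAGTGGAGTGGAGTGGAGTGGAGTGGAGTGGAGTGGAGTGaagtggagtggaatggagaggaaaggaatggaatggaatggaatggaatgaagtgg
AGGAT at chr3:10873347-10873506, SLC6A11: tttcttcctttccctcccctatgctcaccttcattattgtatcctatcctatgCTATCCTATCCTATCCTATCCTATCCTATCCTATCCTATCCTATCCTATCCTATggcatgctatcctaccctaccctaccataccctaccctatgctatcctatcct
AACCCT at chr12:88054720-88054879, CEP290: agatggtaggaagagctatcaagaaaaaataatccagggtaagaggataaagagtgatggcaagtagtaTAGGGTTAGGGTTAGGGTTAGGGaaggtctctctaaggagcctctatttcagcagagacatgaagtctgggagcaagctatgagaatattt

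Around the perfect AATGG tract the satellite went on as TGGAA and TGGAG copies with single changed bases. The ACTCC tract lay in the same kind of sequence: read as TGGAG it is the satellite unit TGGAA with an A-to-G change, and AATGG copies stood on both sides of it. The telomere unit stood differently: its peak held a single tract and matched itself 1 unit further on at 28.8% of positions, where the peak shown for AATGG did so at 71.4% and that for ACTCC at 67.8%.

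The tracts were a small piece of each peak. The longest tract of a member had a median of 23 bp (range 20 to 84), the peak itself a median width of 358 bp (range 190 to 3102), and the perfect tracts together took up a median of 8.75% of the peak. In 339 of the 595 members, or 57.0%, there was a single tract. Imperfect copies filled more: the bases of a member matched the base 1 unit further on at a median of 68.9% of positions. Tandem arrays were peaks that matched themselves at 70% or more of positions at any offset up to 120 bp. They made up 330 of 595 members, or 55.5% (95% exact interval 51.4 to 59.5), against 36.7% of the peaks with a 4 bp tract, 11.5% of those with a 2 bp tract and 8.49% of the 30915 peaks with none of these tracts. The distance from the peaks without a tract follows in part from the rule, since members were chosen for holding a tandem repeat. In 81.2% of the member arrays the best offset was a multiple of the unit. All intervals given here are 95% exact Clopper-Pearson intervals that cover counting error alone, and since peaks at a site and tracts in a block are not independent they are too narrow.

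A few units held most members. The 595 peaks had 50 different units, 15 of them in 1 peak each, and 41 units with fewer than 10 peaks held 110 peaks together. The satellite unit AATGG led with 181 peaks at 127 sites on 11 chromosomes. It was followed by ACCATC with 111 peaks at 57 sites on 16 chromosomes, ACAGAG with 81 peaks at 45 sites on 15 chromosomes, and ACTCC with 39 peaks at 25 sites on 6 chromosomes. These 4 units made up 69.2% of the members. The first place of AATGG depended on the setting: ACCATC led without chromosome 21, with 22.1% of members against 20.8%, with a minimum tract of 15 bp, with 345 peaks against 248, and without the members in blocks, with 54 against 14. The next were ACACAG with 19 peaks, ACACAT with 16, AAAAC with 15, AGCAT with 13 and AGGAT with 10. The telomere unit had 1 peak.

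This order was not the order of the tracts in the genome. Chromosomes 1 to 22 held 79049 tracts of 5 and 6 bp units, and 820 of them, or 1.04%, were overlapped by a listed peak, where tracts of 4 bp units reached 0.957% and tracts of 2 bp units 0.555%. The peaks covered 0.323% of the known bases. The 6 units made of A with 1 other base, such as AAAAC and AAAAAC, accounted for 68.0% of the tracts, but 28 of these 53766 tracts were overlapped (0.0521%). The share was 5.77% of 4888 tracts for AATGG (interval 5.13 to 6.46), 32.8% of 369 for ACCATC (28.0 to 37.8), 23.3% of 395 for ACAGAG (19.2 to 27.8) and 29.9% of 221 for ACTCC (23.9 to 36.4). Without chromosome 21, 3.49% of the AATGG tracts and 0.798% of all tracts had a peak. The share with a peak reached 62.9% of 62 tracts for AGGAT (49.7 to 74.8) and 71.4% of 14 for ACATCC (41.9 to 91.6). Of the 39 AGGAT tracts with a peak, however, 31 came from 1 site and 7 from another, and the ACATCC tracts came from 3 sites.

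The share differed between units with few, some and many G or C bases. Units without a G or C had no overlapped tract among 18432, which allows a share of up to 0.0163% (3 counts), and units with 1 had 37 of 40131, or 0.0922%. With 2 the share was 5.00% of 8406 tracts, and with 3 it was 7.39% of 4828. The units of these 2 classes were not alike. AATGG had 282 overlapped tracts, ACCATC 121, ACAGAG 92 and ACTCC 66, but AAGGG had 0 of 856, AAGAGG 0 of 392 and AAAGG 3 of 749. With 4 or more it was 6 of 7252, or 0.0827% (interval 0.0304 to 0.180). Units with 2 or 3 G or C bases therefore held 561 of the 595 members, or 94.3%, and all 4 leading units were among them. The members as whole peaks had a median AT content of 56.4%, against 61.4% in peaks with no tract, and the more frequent of A and T took up a median of 37.4% and 37.8% of the bases.

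**Figure D1:**
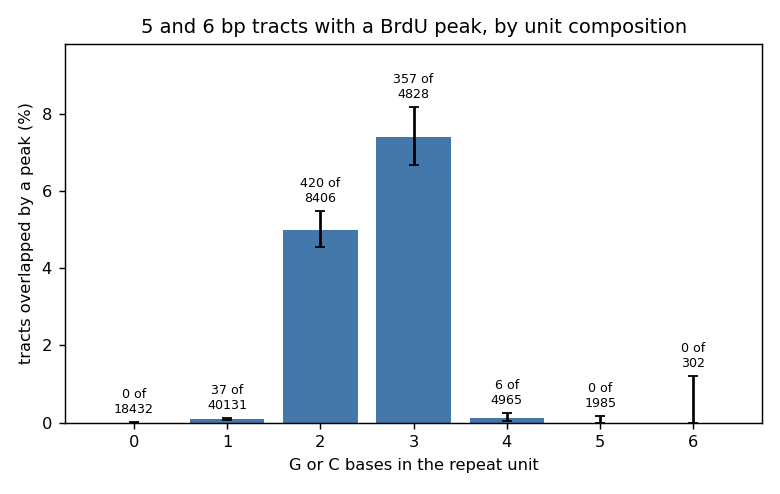
Share of 5 and 6 bp tracts overlapped by a BrdU peak (percent, y axis) against the number of G or C bases in the unit (x axis), with 95% exact intervals and the counts above each bar. Units with 2 or 3 G or C bases stood at 5.00% and 7.39%, and each of the other classes at or below 0.121%. Single units of these 2 classes differed, such as ACCATC with 121 of 369 tracts and AAGGG with 0 of 856.

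Among AATGG tracts, the longest ones had the lowest share with a peak. It was 6.70% at 20 to 24 bp, 5.15% at 25 to 29 bp, 5.41% at 30 to 49 bp and 0.971% at 50 bp and above, where 3 of 309 tracts had a peak. Over all units the corresponding shares were 1.05%, 0.864%, 1.35% and 0.664%. For ACAGAG the class of 30 to 49 bp was the highest, with 15 of 32 tracts.

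The members lay nearer to centromeres and to chromosome ends than peaks without a tract. The place of each centromere was read from the sequence, as the stretch that repeats itself at the length of the alpha satellite unit. Within 5 Mb of it lay 204 members, or 34.3% (interval 30.5 to 38.3), against 8.60% of the peaks with a 4 bp tract and 5.17% of the peaks with no tract. Within 5 Mb of a chromosome end lay 148 members, or 24.9% (21.5 to 28.6), against 11.8% of the peaks with no tract, but the peaks with a 4 bp tract had 27.0% there (23.7 to 30.6). Different units lay at the 2 places. Of the 204 peaks near a centromere, 187 were AATGG or ACTCC, and among AATGG peaks alone 149 of 181 lay there, or 82.3%. ACTCC had 38 of its 39 peaks there. Near a chromosome end other units led: 57 of 111 ACCATC peaks, 36 of 81 ACAGAG peaks and 10 of 19 ACACAG peaks lay within 5 Mb of one, and 9 of 181 AATGG peaks. Both shares moved with the length of tract required: with a minimum of 15 bp, 16.4% of 2063 members lay near a centromere, and with a minimum of 25 bp, 11.2% of 251 members lay near an end.

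**Figure D2:**
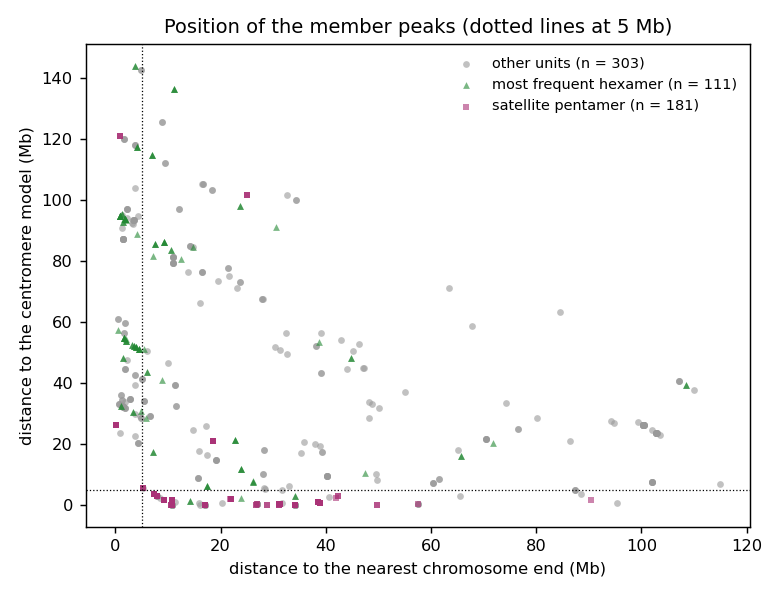
Each point is 1 of the 595 member peaks, by its distance to the nearest chromosome end (x axis, Mb) and to the centromere read from the sequence (y axis, Mb), with dotted lines at 5 Mb. Squares are AATGG (satellite pentamer, 181), triangles ACCATC (most frequent hexamer, 111) and circles all other units (303); 149 of the squares lie below the horizontal line and 57 of the triangles left of the vertical line.

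The tracts themselves were unevenly placed. Within 5 Mb of a centromere lay 64.25% of all ACTCC tracts. Within 5 Mb of an end lay 37.9% of ACCATC, 17.2% of ACAGAG and 14.3% of ACACAG tracts. Of all AATGG tracts in the reference, 96.9% lay within 5 Mb of a centromere, above the 82.3% of their peaks. The share with a peak was 5.17% of the 4737 tracts near a centromere and 24.5% of the 151 tracts farther away (interval 17.9 to 32.2), of which 37 had a peak. The 5 AATGG blocks that far from a centromere held 15, 9, 5, 4 and 3 of these 37 tracts, the 15 being in the gene NSUN6. Toward chromosome ends the pooled shares of the other units ran the other way. Tracts of all units but AATGG were overlapped at 2.66% within 5 Mb of an end (2.26 to 3.10) and at 0.558% elsewhere (0.504 to 0.617). For ACAGAG the shares were 63.2% of 68 tracts near an end and 15.0% of 327 farther away, and for ACCATC 41.4% of 140 and 27.5% of 229. ACACAG ran the same way, with 5 of 13 and 10 of 78. ACTCC ran against it, with 1 of 9 tracts near an end and 65 of 212 farther away. The pooled shares also mix units placed differently: 37.9% of ACCATC tracts but 6.64% of AAAAC tracts lay near an end.

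Members within 5 Mb were found at 25 of the 44 chromosome ends and within 1 Mb at 7. All 44 ends were counted, also where the reference has no known bases, and distances ran across such gaps. On chromosome 13, for example, 97983125 of 114364328 bp were known. The long-arm end of chromosome 12 had the most, with 18 members within 5 Mb and 8 within 1 Mb, the leading unit being ACCATC. The long-arm end of chromosome 16 had 16, also led by ACCATC, and the short-arm end of chromosome 1 and the long-arm end of chromosome 20 had 12 each, both led by ACAGAG. The member nearest to an end was an AATGG peak 0.0613 Mb from the start of chromosome 20, in a block of 6 peaks at chr20:61068-65946. Of the 334 tracts of the telomere unit 75.4% lay within 5 Mb of an end, and 1 tract was overlapped. Its peak, chr12:88054777-88055018, lay 45.2 Mb from the end of chromosome 12, over an annotated exon of CEP290, a protein of the ciliary base, with a tract of 23 bp.

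Chromosome 21 had the most members. They were 110 of its 683 listed peaks, or 16.1%, where the other chromosomes ranged from 0 of 636 peaks on chromosome 18 to 4.53% on chromosome 20. Of the 110, 80 were AATGG and 92 lay within 5 Mb of the centromere. On chromosome 21, 126 of 423 AATGG tracts had a peak, or 29.8% (interval 25.5 to 34.4). On chromosome 22, another acrocentric chromosome, the share was 10.3% of 233. Chromosome 10 had the most AATGG tracts, 1294, with a peak on 3.48%, chromosome 20 had 5.26% of 741 and chromosome 17 had 1.88% of 693. Chromosome 4 had 969 tracts, of which 4 were overlapped, or 0.413% (0.113 to 1.05). Chromosomes 21 and 22, with chromosome 15, held 97 of the 181 AATGG peaks, but 80 of these were on chromosome 21. The 3 chromosomes had 423, 233 and 11 of the 4888 AATGG tracts. On the acrocentric chromosomes 13 and 14, 0 of 1 and 0 of 19 AATGG tracts had a peak.

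**Figure D3:**
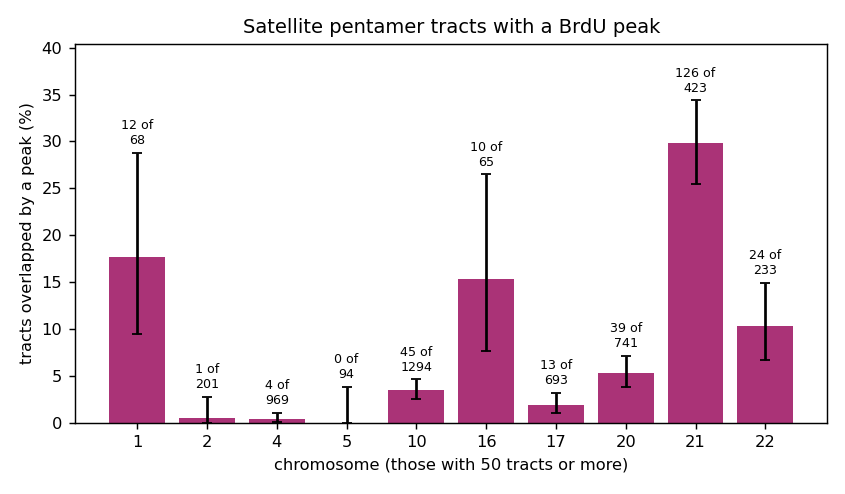
Share of AATGG tracts overlapped by a BrdU peak (percent, y axis) on each chromosome with 50 such tracts or more (x axis), with 95% exact intervals and counts. Chromosome 21 stands at 29.8%, chromosomes 1 and 16 at 17.6% and 15.4% of few tracts, and chromosomes 2 and 4 at 0.498% and 0.413%. Chromosome 5 stands at 0 of 94 tracts, which allows up to 3.19% (3 counts), where the drawn interval reaches 3.85%.

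The satellite is repeated, and a short read from it may belong in many places. Every word of 31 bases in a peak was therefore counted on both strands of chromosomes 1 to 22, X and Y of the hg38 reference. Copies in stretches without known bases were not counted, so a word that occurred once in the reference may have further copies. In AATGG peaks a median of 73.0% of the words occurred once (quartiles 59.2 and 83.3), and in peaks with no tract 98.9%. Over 280 bp around each AATGG tract the median was 70% where the tract had a peak and 52.8% where it had none. The share with a peak was 2.72% of the 2205 tracts with fewer than 50% such words, 8.04% of the 2499 tracts with 50 to under 90%, 21 of the 175 tracts with 90 to under 100%, and 0 of the 9 tracts with 100%. On chromosome 4 the median was 51% for the 4 tracts with a peak and 25.2% for those without. It was 63.2% and 37.6% on chromosome 20, and 69.6% and 58.4% on chromosome 10. On chromosome 21 the median was 75.6% both for tracts with and for tracts without a peak, and on chromosome 17 it was 69.2% and 65.7%. On chromosome 22 it was lower for tracts with a peak, at 52.0% and 58.4%. The order also turned for ACCATC, with 62.0% of words that occurred once around tracts with a peak and 78.0% around tracts without one, and for ACAGAG, with 27.4% and 86.8%. Around ACTCC tracts the median was 74% with a peak and 60% without one. The part of read placement in these shares was not tested.

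Members of the same unit on 1 chromosome with gaps of 50 kb or less were joined, and 3 or more peaks made a block. There were 68 blocks, which held 389 members, or 65.4%, but 39 of them were a single site with peaks on top of each other. Of the 29 with 2 sites or more, 15 were AATGG. In all, 17 blocks were AATGG, with 167 of the 181 peaks of this unit, and 12 of them lay within 5 Mb of a centromere. In 63 blocks, and in 15 of the 17 of AATGG, all tracts of the unit were in 1 orientation. The tracts of a block were counted as overlapped when any listed peak lay on them, also a peak whose longest tract had another unit. A block ran from its first to its last member peak, so the share of its tracts overlapped is raised by this rule. In a block of a single site every tract was overlapped by construction.

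The block with the most peaks lay on the short arm of chromosome 21 at chr21:10659488-10738562, 0.0119 Mb from the alpha satellite. It was 79.1 kb long and held 37 AATGG peaks at 29 sites, and 57 of its 250 tracts were overlapped. Its span also held peaks without this unit as the longest tract, 57 listed peaks in all. All 250 tracts ran in the CATTC direction, and 68.5% of the bases of the whole span matched the base 5 bp further on. Its AATGG peaks were unevenly spread. None lay between 4.836 and 20.391 kb or between 27.934 and 39.590 kb from the first base of the block. The AATGG tracts of these stretches had no peak. Inside it, a block of 8 ACTCC peaks stood at chr21:10706597-10737326. The next block, at chr21:7915842-7957888, had 28 AATGG peaks at 20 sites over 42.0 kb, with 37 of 111 tracts overlapped. Another, at chr21:7257436-7261523, was 4.09 kb long, with 6 AATGG peaks, which covered 96.0% of the span, and all 16 tracts were overlapped. The widest member, of 3102 bp, formed the block at chr21:9246121-9249222 with 5 peaks inside it. Of the 6 ACTCC blocks 4 lay over the span of an AATGG block, and 43 members held tracts of both units.

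**Figure D4:**
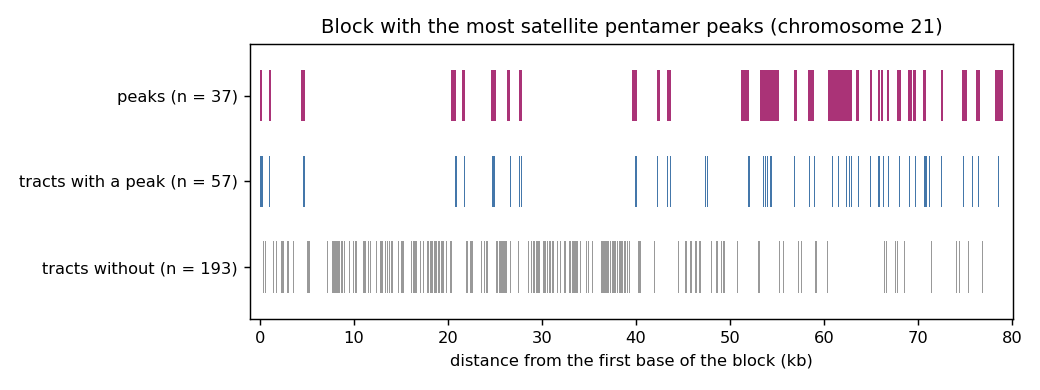
Map of the block with 37 AATGG peaks on chromosome 21, with the distance from its first base on the x axis (kb). The rows show the AATGG peaks, the 57 tracts overlapped by any listed peak and the 193 tracts without one, tracts being widened for display. Of the 57, 4 were overlapped by ACTCC peaks alone, which are not drawn. Stretches with many tracts but no AATGG peak, such as 5 to 20 kb, stand beside stretches where peaks follow closely.

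The satellite blocks of other chromosomes differed in the share of tracts overlapped, which depends on where the first and last peak of a block lay. On chromosome 17, chr17:21861414-21947641 was 86.2 kb long and had 5 AATGG peaks, and 7 of its 176 tracts were overlapped. On chromosome 20, chr20:31052209-31089212 had 4 AATGG peaks, with 16 of 284 tracts overlapped, and chr20:31171650-31236325 had 8, with 14 tracts overlapped, or 5.47%. The blocks at chr10:38902941-38920209 and chr10:38519834-38529781 had 8 AATGG peaks each, with 8 of 16 and 11 of 36 tracts overlapped, and chr15:17081332-17083042 had 5, with 3 of 6 tracts overlapped. On chromosome 22, chr22:10717370-10730198 had 12 AATGG peaks, with 24 of 79 tracts overlapped. On chromosome 16, chr16:34062717-34098278 had 8 peaks and tracts of both orientations, 24 and 21. Blocks far from a centromere were found on chromosome 1, at chr1:790201-790873 and at chr1:224012667-224015542, 101.5 Mb from it, with 3 peaks each.

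Of the AATGG blocks farther than 5 Mb from a centromere, the one with the most peaks lay inside a gene. NSUN6, which encodes an RNA cytosine methyltransferase, had 17 AATGG peaks at 10 sites in its intron 8, at chr10:18552860-18573236, 20.8 Mb from the centromere. The span held 40 listed peaks in all. Of the 16 tracts in the block 15 were overlapped. Tracts stood in both orientations, 12 and 4, and the 17 AATGG peaks matched themselves at 1 unit at 59.0 to 63.4% of positions. In these 17 peaks a median of 73.9% of words occurred once in the reference, and none of the 17 was below 60.9%.

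Hexamer blocks were short and mostly single sites. ACCATC and ACAGAG formed 26 blocks, and 15 of them lay within 5 Mb of an end. At chr12:132463472-132464576, 0.811 Mb from the end of chromosome 12, there were 5 ACCATC peaks at 1 site, and up to 4 listed peaks covered the same base. At chr17:81531256-81532812, 1.73 Mb from the end of chromosome 17, 6 ACCATC peaks lay in intron 1 of FSCN2, a fascin of the retina, a gene named here after its values were seen. At chr14:105573351-105578580, 1.47 Mb from the end, 9 ACAGAG peaks formed 3 sites. The longest hexamer block, chr1:146069715-146122112, with 10 peaks, belonged to the NBPF genes.

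NBPF14 and NBPF10 are members of a gene family that is itself made of repeated exon groups in near-identical copies. NBPF14 had 16 ACAGAG peaks at 9 sites, in introns 20 to 66, and NBPF10 had 10 at 7 sites, of which 2 peaks reached a coding exon. The spans of these blocks held 31 listed peaks in NBPF14 and 17 in NBPF10. The ACAGAG peaks were not arrays: they matched themselves at 1 unit at 27.4 to 39.6% of positions in NBPF14 and at 30.8 to 37.9% in NBPF10. In 13 of the 16 NBPF14 peaks and 8 of the 10 NBPF10 peaks no word of 31 bases occurred once, and the median number of copies was 60.8 and 59.0. How reads that match several copies were placed is not given in the sources used here, and which copies carried the BrdU is uncertain.

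The other coding genes with 2 sites or more had their members in introns. IL1R2, the decoy receptor of interleukin-1, had 6 peaks at 2 sites in intron 1, of which 4 had ACACAG as the unit of the longest tract. RFLNA, an actin regulator, had 4 ACCATC peaks at 2 sites, and C12orf75 had 3 peaks at 2 sites, with AGCAT in the pair that overlapped. In all, 84 coding genes held a member, and 6 of them had 2 sites or more.

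Members were mostly outside genes. Of the 595, 370 were intergenic, 216 lay in introns, and 9 overlapped an exon, of which 3 reached coding sequence. The share in a gene was 37.8% (interval 33.9 to 41.9), against 68.1% of peaks with no tract. The majority turned under some settings: 57.8% lay in a gene when the members in blocks were left out, and 50.6% with a minimum tract of 15 bp. AATGG peaks were in a gene in 22 of 181 cases, or 12.2%, and 17 of these 22 were the peaks of NSUN6. No ACTCC peak was in a gene. The members of all other units but AATGG were in a gene in 203 of 414 cases.

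Peaks were stacked at many member sites. Since the list pools 5 timepoints and 2 repeats, peaks on the same bases may come from different timepoints or repeats, which the list does not tell. Of the 358 sites 193 had no base with more than 1 peak, 89 reached 2, 57 reached 3, 15 reached 4 and 4 reached 5. At least 2 were stacked at 46.1% of the member sites (interval 40.8 to 51.4), against 53.2% of sites with a 4 bp tract and 20.1% of sites with no tract. At satellite sites the shares were lower: 29.9% of 127 AATGG sites reached 2, and none reached 4, which allows a share of up to 2.36% (3 counts), where 55.7% of the 235 sites with another unit reached 2 and 8.09% reached 4 or 5.

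**Figure D5:**
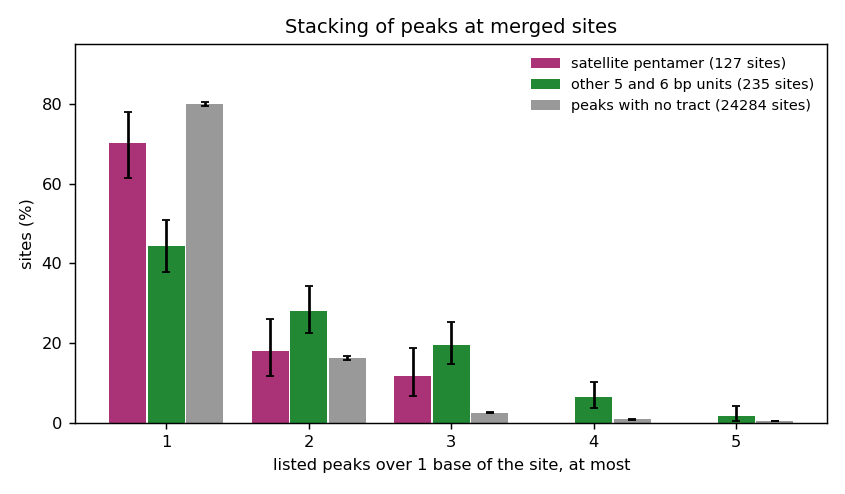
Share of merged sites (percent, y axis) by the largest number of listed peaks over 1 base (x axis), with 95% exact intervals, for 127 sites with an AATGG peak, 235 sites with a peak of another 5 or 6 bp unit (a site with both counts in both) and 24284 sites of peaks with no tract. A single peak stood at 70.1%, 44.3% and 79.9% of these sites.

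The 4 sites with 5 stacked peaks had 3 units. The AGGAT site at chr2:70434045-70435284 had 5 member peaks, with up to 33 tracts in a peak, and was intergenic. The other AGGAT site, chr3:10873270-10874186, had 5 member peaks in intron 5 of SLC6A11, a GABA transporter, and is the AGGAT sequence shown above. The ACATCC site at chr2:10953687-10954124 had 5 member peaks that matched themselves at 1 unit at 89.5 to 90.7% of positions, the most regular of the 4. The AGATGG site at chr4:40294338-40295726 had 7 member peaks, with a longest tract of 24 bp. At all 4 sites the tracts of the leading unit ran in a single direction.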

How the data were processed

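The data were the BrdU peaks of BJ-hTERT cells. As the paper's methods state, the authors aligned reads to hg38 with Bowtie2 and called peaks in BrdU samples against Input DNA with MACS2. The deposited list holds positions in bp, as start and end, and no read count or score, so the depth and the precision it gives are unknown. Starts were taken to count from 0, and printed coordinates count from 1.

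Perfect tracts were searched in the hg38 reference on chromosomes 1 to 22, and genes were taken from GENCODE version 44. A member was assigned the unit of its longest tract. The centromere was the stretch of 10 kb windows that matched themselves at the alpha satellite length at 50% or more of positions. No test was made, since the list has no replicates. The 4 ChIP-Seq samples were mapped to their groups but not used.

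The members, lists and measures were chosen with earlier results of these data known, and the counts of 31-base words were added after the first values. The genes named were coding genes with 2 or more member sites and those at the widest peak, the sites with most stacked peaks and the printed sequences, of which none is from chromosome 8. FSCN2 was named outside this rule. The gene at the longest tract and the sequences of the other frequent units are not reported here. The alternatives were other tract lengths, whole tracts inside a peak, kept 2 or 4 bp tracts, merged peaks, starts counted from 1, members in blocks left out, other distances and block definitions, coding genes alone, and joined tracts.

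The tools were Python 3.11.15, numba 0.67.0, pandas 2.3.3, numpy 2.4.6, matplotlib 3.10.9 and scipy 1.17.1. The tract search, the word counts and, against bedtools 2.31.1, the overlaps were checked on simulated data.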

Additional observations from a re-analysis of the deposited data

How the results depend on the processing

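Over 18 alternative settings 124 values were recomputed. Of these, 64 stayed within the 95% interval of the reported share, or within 1.5 times the reported count, and 60 did not. Some settings change which peaks or tracts are counted, and the cause of the moves was not tested. With a minimum tract of 15, 25 and 30 bp there were 2063, 251 and 136 members, of which AATGG made up 12.02%, 40.2% and 43.4%; 7.74%, 4.69% and 4.36% of AATGG tracts had a peak, and 16.4%, 42.6% and 44.1% of members lay near a centromere. The share of all tracts with a peak was 1.18% at 15 bp and 1.18% at 30 bp, the share of members in a gene 50.6% at 15 bp, and the share near an end 11.2% at 25 bp and 7.35% at 30 bp. With whole tracts required inside a peak, 0.940% of all tracts and 5.07% of AATGG tracts were counted, and with tracts joined across 6 bp, 0.965% of all tracts. With peaks merged first there were 357 members, 34.7% of them AATGG, 38.9% near a centromere and 20.2% near an end. With the members in blocks left out, 206 remained, 6.80% of them AATGG, 14.6% near a centromere and 57.8% in a gene; 0.447% of all tracts and 0.929% of AATGG tracts had a peak, and 39.1% of sites were stacked. Within 2 Mb lay 25.5% (centromere) and 14.3% (end), and within 10 Mb 40.7% and 38.0%. Blocks of 5 or more peaks numbered 25 with 41.5% of members. In protein-coding genes lay 28.9%.

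Of the 18 settings, 3 were added after the data had been seen. Blocks of 3 or more sites numbered 23 with 37.8% of members. Without chromosome 21, AATGG made up 20.8% of members, 0.798% of all tracts and 3.49% of AATGG tracts had a peak, 23.1% of members lay near a centromere, 28.7% near an end, 59.8% in blocks and 44.5% in a gene. With the centromere read at a limit of 40%, which also moved its place on chromosomes such as 10 and 16, 35.1% of members lay near it. No paired analysis was possible because the peaks carry no repeat number. The list pools timepoints and repeats and gives no depth, so the absence of a peak at a tract sets no limit on BrdU there.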
